A study of Xenopus laevis with 4 samples.

Results

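Cytosolic ribosomal protein genes were followed in Xenopus laevis oocytes and in the vegetal cortex cut from them. Members were the probe sets with 1 gene symbol that, without the ending .L or .S, reads rpl, rps or rplp followed by a digit, or rpsa; kinases of ribosomal protein S6 and rps19bp were left out. This gave 94 of 15491 probe sets, which stood for 74 gene symbols, 47 of the large and 27 of the small subunit. Whole oocytes were full-grown stage VI oocytes treated with collagenase, and vegetal cortices were dissected by hand from such oocytes, with the yolky cytoplasm pressed away. Each group had 2 Affymetrix arrays, and the replicates came from different donor females. That arrays of the same number share a female was taken from the dissection protocol and the design text together, since no sample's own label states it, and values given by female rest on this. The labels name no genetic change and no drug. Cortices were frozen in batches, so an array reads pooled material.

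A ribosome joins a small subunit, which reads the mRNA, to a large subunit, which forms the peptide bond, and each subunit is built from ribosomal RNA and its own set of proteins. The frog oocyte makes ribosomes for the embryo during its growth and stores them. In vertebrates the mRNAs of ribosomal proteins begin with a run of pyrimidines, the terminal oligopyrimidine or TOP sequence, through which their translation is switched together. X. laevis is an allotetraploid, and .L and .S mark the gene copies (homeologs) on its long and short subgenomes.

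Signals are the deposited MAS5 values on a linear scale. Every array was scaled to the same trimmed mean, so every change is one relative to the rest of the array. Signals of different probe sets depend on their probes and are not amounts of RNA that can be set against each other. In bulk RNA, less material that holds a transcript and fewer copies within it cannot be told apart. A probe set was tested when its mean over the 4 arrays reached 271.5, which held for 9295 probe sets and for 83 of the 94 members. A log2 change is cortex over whole oocyte by limma, with an offset of 19.11 added before log2, and adjusted p-values are over all 9295 tested probe sets. A gene is represented by its brightest tested probe set, which gave 70 genes, 45 large and 25 small.

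The cortex samples carried the RNAs known from this region. Of 9 tested genes known from the vegetal cortex and germ plasm, 8 were called higher, with log2 changes over all 9 between 1.92 and 4.65; the exception, vegt.S (adjusted p = 0.185), was called once the replicate number entered as a block (adjusted p = 0.036) and when vegetal cortex replicate 2 was left out. A list of genes taken as markers of follicle cells and stroma held 12, of which 4 were bright enough to test. Of these 1, cyp17a1.L, was called higher, and whether it marks such cells in the frog ovary was not tested. The summed signal of this list was 19661 and 20943 in whole oocytes and 43084 and 36379 in cortices. cyp17a1.L alone read 4187 and 5881 in whole oocytes and 28863 and 16553 in cortices, and without it the other 11 markers summed to 15474 and 15062 in whole oocytes and 14220 and 19826 in cortices. The other 3 tested markers were not called (fn1.S log2 change 0.15, vim.L 0.05, pdgfra.L -0.90). For 4 genes of blood cells, of which 1 was tested, the sums were 863 and 765 in whole oocytes and 669 and 1805 in cortices. None of these markers is listed at a signal of 0, and their part in the results below was not tested.

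Ribosomal protein genes were among the brighter probe sets in oocytes, and by limma none was called changed in the cortex. Depending on the array, 82 or 83 of the 94 members exceeded its median; the 70 genes all did, having been kept by their signal. On all 4 arrays 33 of the 94 members (35.1%) lay in the brightest decile of that array, against 5.27% of all probe sets. By gene this held for 17 of the 47 large and 12 of the 27 small subunit genes, untested genes included and each gene read by its brightest probe set. In whole oocyte replicate 1 the brightest decile began at a signal of 4829 and the brightest percentile at 14463. The decile held 47 and 40 of the 70 genes in whole oocytes and 35 and 43 in cortices. These 70 were kept by their mean signal over the same 4 arrays. Of the 9295 tested probe sets, 1550 lay in the brightest decile of mean whole oocyte signals. Over the 70 tested genes alone, the mean whole oocyte signal had a median of 6357 for the large and 6800 for the small subunit. These are ranks of probe set signals, and they hold for the probe sets with 1 symbol; a further 17 probe sets that list a ribosomal protein gene beside another symbol were not used.

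**Figure D1:**
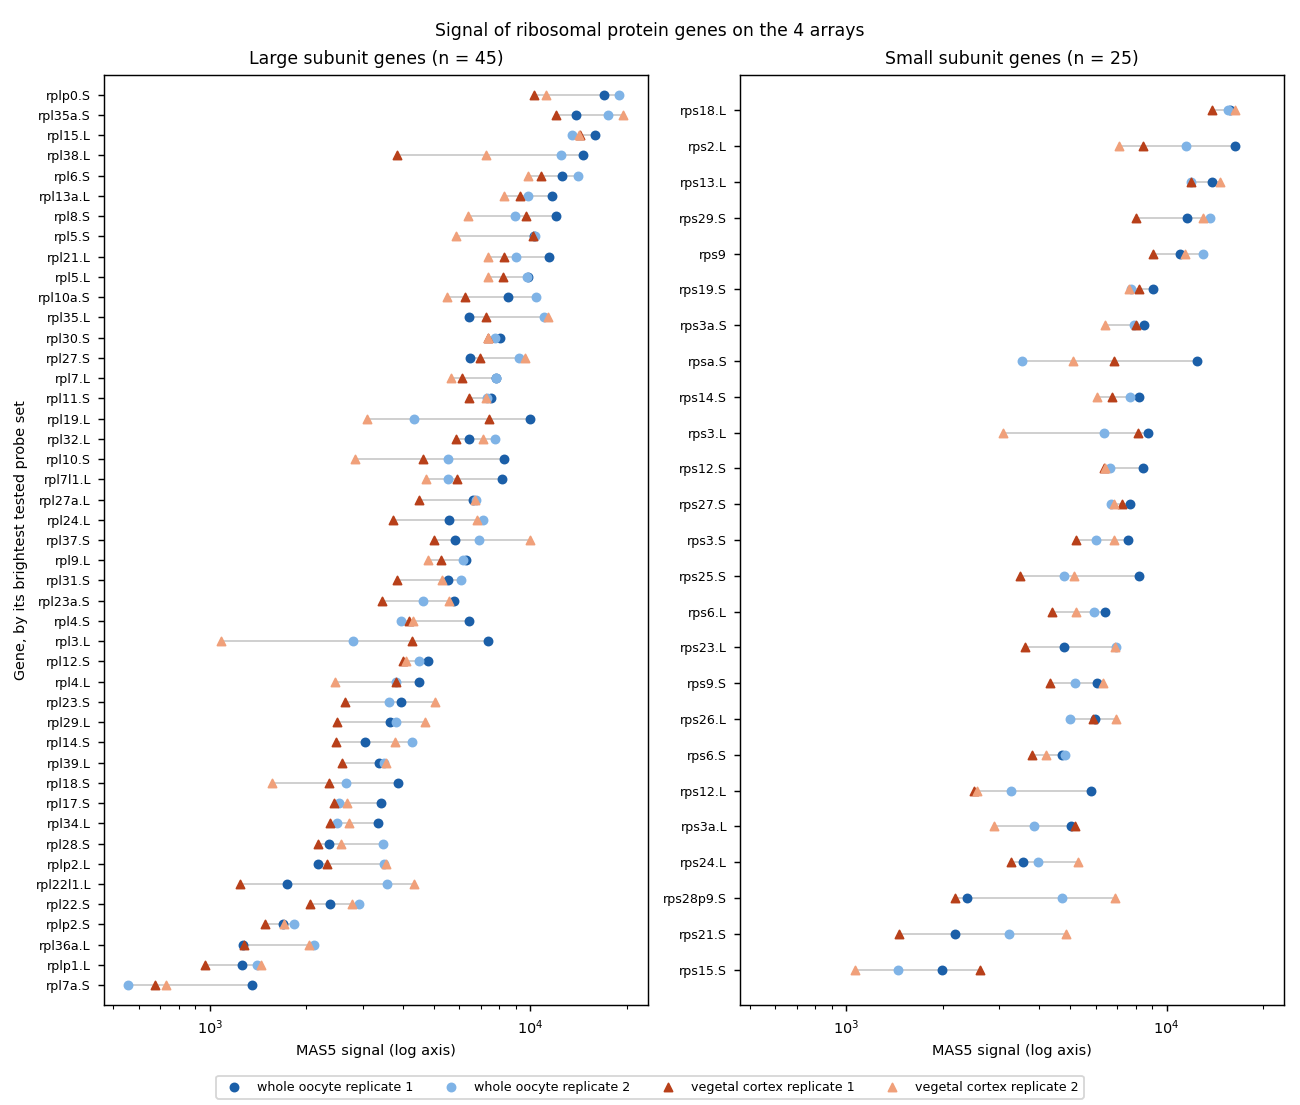
MAS5 signal (log axis) of the 70 tested genes on each of the 4 arrays, with whole oocytes as circles and cortices as triangles, and a grey line from the lowest to the highest array. For rpl38.L, rplp0.S and rps2.L both cortex arrays sit left of both whole oocyte arrays, while for rps18.L and rpl15.L all 4 arrays lie close together.

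Among the large subunit genes the brightest probe set in whole oocytes was that of rplp0.S, the base of the P stalk, a flexible arm of the large subunit that recruits elongation factors. Its signals were 16929.8 and 18872 in whole oocytes and 10246 and 11207 in cortices. Both cortex values lay below both oocyte values, and the log2 change (-0.74 ± 0.27 SE, adjusted p = 0.323) was alike in the females (-0.72 and -0.75) and did not pass. rpl35a.S, a protein of the large subunit, read 13840.5 and 17417 in whole oocytes and 12058 and 19516 in cortices, so that the cortices bracketed the oocytes (log2 change -0.02 ± 0.32 SE). rpl15.L, another core protein, held 15921 and 13529 in whole oocytes and 14271 and 14214 in cortices, and its cortex arrays lay between the oocyte arrays.

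rpl38.L had the lowest change of all tested members. In mouse, Rpl38 is known for its part in the translation of Hox mRNAs. Its signal was 14592 and 12436 in whole oocytes and 3832 and 7285 in cortices. The groups did not overlap, and the whole oocyte level was 2.54 times that of the cortex (log2 change -1.35 ± 0.37 SE, adjusted p = 0.135). The size differed between the females, at -1.92 for replicate 1 and -0.77 for replicate 2. Without vegetal cortex replicate 2 it passed as lower (log2 change -1.81), a fit in which 0.409% of all tested probe sets were called lower and 7.17% higher.

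rpl6.S and rpl13a.L completed the 6 brightest of the large subunit. rpl6.S read 12541 and 14107 in whole oocytes against 10789 and 9863 in cortices (log2 change -0.37 ± 0.28 SE), and rpl13a.L, whose human counterpart is known for silencing inflammatory mRNAs outside the ribosome, 11688 and 9863 against 9266 and 8286 (-0.29 ± 0.29 SE). By these probe sets the cortex arrays lay below the oocyte arrays in both genes, and neither change passed. A dimmer probe set of rpl13a.L read 5310 and 6818 in whole oocytes and 4225 and 6727 in cortices, so its groups overlapped.

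The brightest small subunit gene in whole oocytes was rps18.L, a protein of its head, with signals of 15716 and 15548 in whole oocytes and 13861 and 16300.2 in cortices. Its log2 change of -0.06 ± 0.27 SE was near 0, and the cortices lay on both sides of the oocytes. rps2.L, which sits at the mRNA entry of the small subunit, was lower in both cortices, at 8449 and 7109.5 against 16395 and 11486 (log2 change -0.82 ± 0.31 SE, adjusted p = 0.339). This was the lowest value among small subunit genes, with -0.95 and -0.69 in the females, and it did not pass.

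rps13.L read 13808 and 11908 in whole oocytes and 11915 and 14713 in cortices, and rps29.S, a small zinc-binding protein, 11611 and 13619 in whole oocytes and 8048 and 13002 in cortices. The groups overlapped in both genes. The probe set with the symbol rps9, without a copy ending, held 10983 and 12990.0 in whole oocytes and 9049 and 11436 in cortices, and rps19.S, whose human counterpart is mutated in Diamond-Blackfan anaemia, 9042 and 7761 in whole oocytes and 8194 and 7649 in cortices. Their log2 changes were 0.05 ± 0.29 SE for rps13.L, -0.30 ± 0.33 SE for rps29.S, -0.23 ± 0.30 SE for rps9 and -0.08 ± 0.30 SE for rps19.S.

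The other stalk proteins were dimmer than rplp0.S on this array, and their changes lay nearer 0. rplp1.L, which binds the stalk base as a dimer with rplp2, read 1258 and 1405 in whole oocytes and 965 and 1441 in cortices (log2 change -0.17 ± 0.39 SE). rplp2.L held 2176 and 3507 in whole oocytes and 2315 and 3553 in cortices (0.05 ± 0.40 SE), with replicate 2 the higher in both sample types. rplp2.S held 1697 and 1826 in whole oocytes and 1484 and 1707 in cortices (-0.14 ± 0.35 SE). The difference between rplp0.S and these genes was not tested.

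The members' changes lay mostly a little below 0, as did those of most tested probe sets. By limma 0 of 83 tested members were higher and 0 lower at an adjusted p under 0.05, where 3.31% of all tested probe sets were called higher and 0.0% lower. Before adjustment limma placed 0 members higher at its 0.05 level, against 8.02% of all tested, and 4 lower (4.82%, against 4.62%), which were rplp0.S, rps2.L, rpl38.L and rpl10.S. The median log2 change over the 70 genes was -0.22, beside -0.20 for all tested probe sets. For the 70 genes it was -0.32 in the first female and -0.07 in the second. Over all tested probe sets these values were -0.27 and -0.12, and over those in the brightest decile -0.33 and -0.21. A log2 change below 0 was found in 68 of 83 members (81.9%), against 65.7% of all tested probe sets and 76.3% of those in the brightest decile of whole oocyte signals.

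The spread of the change among the members was described by its SD. The SD of the log2 change was 0.29 over the 70 genes, 0.79 over all tested probe sets and 0.59 over the tested probe sets of the brightest decile. Both cortex signals lay below both whole oocyte signals in 22 of 83 members (26.5%), against 31.8% of all tested, and above them in 1 (1.20%), against 14.7%. Lower values in both same-numbered pairs were found in 45 members (54.2%, against 47.0%) and higher values in both in 6 (7.23%, against 20.8%). In the brightest decile 40% of tested probe sets had both cortices below both oocytes and 9.61% above, 57.5% were lower in both pairs and 13.2% higher in both. The 95% interval of the change lay wholly within 2-fold in either direction for 34 of 83 members (41.0%), against 12.9% of all tested probe sets and 30.6% of those in the brightest decile. For the other 49 members the interval reached a 2-fold change. These shares were not tested against each other.

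**Figure D2:**
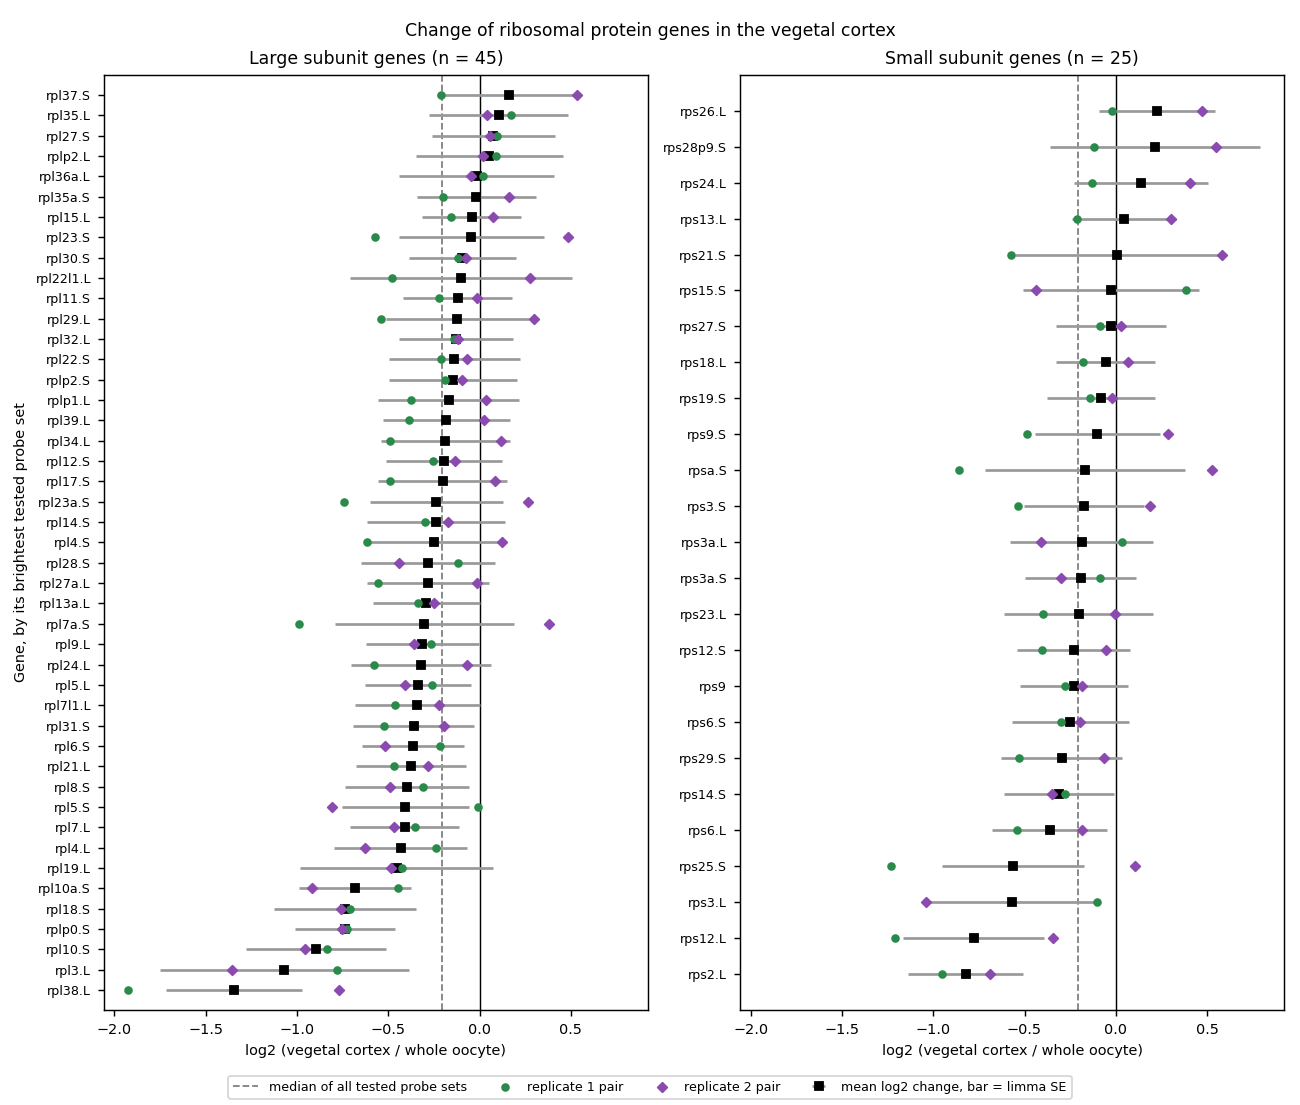
Log2 change in the vegetal cortex of the 70 tested genes (black squares, bars are limma SE), with the value in each female's pair as a green circle (replicate 1) or purple diamond (replicate 2). The dashed line is the median of all tested probe sets (-0.20), and 61 of the 70 genes have a mean change below 0.

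**Figure D3:**
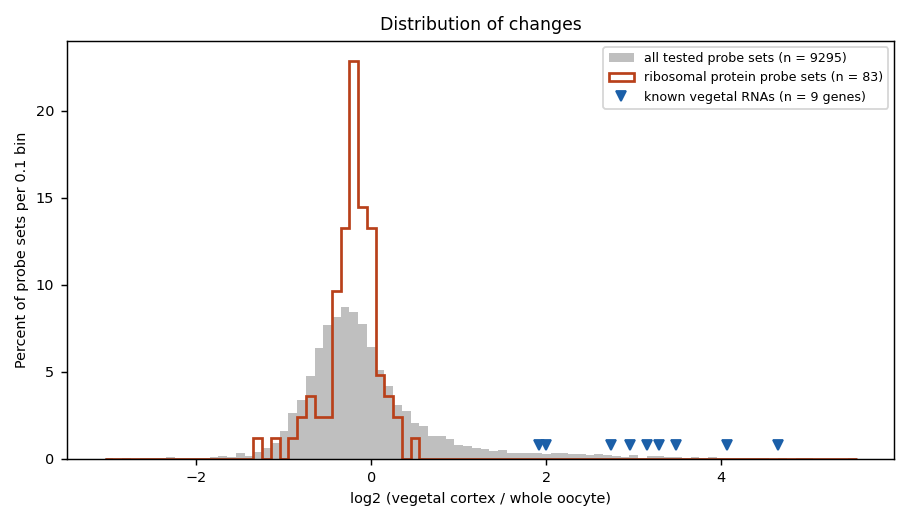
Distribution of log2 changes, cortex over whole oocyte, in bins of 0.1, as a percent of all 9295 tested probe sets (grey) and of the 83 tested ribosomal protein probe sets (red line), with 9 known vegetal RNAs as blue marks. The ribosomal protein probe sets lie between -1.35 and 0.47, and all of the vegetal RNAs at 1.92 or above.

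The medians of the large and the small subunit lay close together. The median log2 change was -0.25 over 45 large subunit genes and -0.19 over 25 small subunit genes. The difference of -0.06 was -0.07 in the first female and -0.08 in the second, and moved to 0.00074 without vegetal cortex replicate 1. Values below 0 were found in 41 of 45 large and 20 of 25 small subunit genes. The summed signal of the large subunit genes was 1.11% and 1.08% of the array's total in whole oocytes and 0.802% and 0.887% in cortices. For the small subunit genes it was 0.719% and 0.626% in whole oocytes and 0.520% and 0.586% in cortices. Both subunits' shares were lower in the cortex in each female. The summed signal of the 9 vegetal genes, which enters the same total, was 45490 and 49335 in whole oocytes and 331542 and 280076 in cortices. Their part in the lower shares was not tested. By subgenome, the median change was -0.24 over 32 .L genes and -0.20 over 37 .S genes.

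Besides rpl38.L, rplp0.S and rps2.L, the lowest changes were those of rpl3.L, rpl10.S and rps12.L. rpl3.L, a protein close to the peptidyl transferase centre, read 7367 and 2798 in whole oocytes and 4288 and 1079.6 in cortices. Its log2 change (-1.07 ± 0.68 SE, adjusted p = 0.537) had a wide error, and replicate 1 exceeded replicate 2 in both sample types. rpl10.S, which joins the large subunit late in its maturation, read 8271 and 5519 in whole oocytes and 4624 and 2832 in cortices, with both cortices below both oocytes (log2 change -0.90 ± 0.38 SE, adjusted p = 0.391). rps12.L held 5823 and 3261 in whole oocytes and 2509 and 2561 in cortices (-0.78 ± 0.39 SE, adjusted p = 0.46), with -1.21 and -0.35 in the females. Without vegetal cortex replicate 1, where 7.24% of all tested probe sets were called lower and 7.5% higher, 4 members passed as lower: rpl3.L (log2 change -2.05), rps3.L (-1.27), rpl10.S (-1.25) and rpl19.L (-1.08).

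At the other end no change stood beyond its error. The highest was that of the dimmest of 3 probe sets of rpl35a.S (log2 change 0.47 ± 0.53 SE), which read 504 and 838 in whole oocytes and 566 and 1451 in cortices, while the brightest probe set of that gene was at -0.02. A probe set of rps27.S, a zinc-binding protein, was the 1 member whose cortex signals both exceeded both oocyte signals: 6289.6 and 9531 against 6239.7 and 6207 (0.31 ± 0.33 SE). Its 3 other probe sets had changes between -0.06 and 0.0029. A probe set of rps29.S (0.27 ± 0.37 SE), rps26.L, which contacts the mRNA at the exit side of the small subunit (0.22 ± 0.32 SE), rps28p9.S (0.21 ± 0.57 SE) and rpl37.S, a zinc-binding protein of the large subunit (0.16 ± 0.39 SE), completed the 6 highest.

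Several probe sets were tested for 8 genes, and they allow the change of 1 gene to be read more than once. The gap between the lowest and the highest change of a gene was 0.02 for rps3a.S, 0.10 for rpl23a.S, 0.12 for rpl13a.L, 0.29 for rps3a.L, 0.37 for rps27.S, 0.44 for rps28p9.S, 0.49 for rpl35a.S and 0.57 for rps29.S. In rpl35a.S, rps27.S, rps28p9.S and rps29.S the probe sets disagreed in sign, and no change in them exceeded its error. Of the 94 members 19 have an identifier that marks probes shared between transcripts, so the signal of near-identical copies cannot always be told apart.

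Both copies were tested for 7 genes, and in none of them was a difference in change called. The test compares, within each array, the log2 signal of the .L copy with that of the .S copy, over all 636 homeolog pairs tested; by limma 0 of the 7 pairs passed, against 6 of 636 over all pairs (0.943%), and before adjustment 0 of 7 did, against 59 of 636. The largest difference was that of rps12. The .L copy read 5823 and 3261 in whole oocytes and 2509 and 2561 in cortices, and the .S copy 8453 and 6663 in whole oocytes and 6389.8 and 6407 in cortices. The .L change was lower by 0.55 on the log2 scale (-0.55 ± 0.36 SE, 95% interval from -1.38 to 0.28, adjusted p = 0.917), with the same sign in both females (-0.81 and -0.29).

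For rps3, a protein of the mRNA entry channel, the .L copy read 8774 and 6382 in whole oocytes and 8171 and 3094 in cortices, and the .S copy 7571 and 6030.2 in whole oocytes and 5217 and 6868 in cortices. The difference of -0.40 ± 0.56 SE was 0.43 in the first female and -1.23 in the second, whose cortex had the lowest of the rps3.L signals. Without vegetal cortex replicate 1, which leaves 1 cortex array, the difference of this pair was -1.29. In rplp2 the difference was 0.20 ± 0.43 SE, and in rpl4, which lines the exit tunnel for the growing protein, -0.18 ± 0.40.

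Closer still were rps6, the substrate of S6 kinase (-0.11 ± 0.34), rpl5 (0.07 ± 0.35) and rps3a (0.01 ± 0.36). Both rps3a copies were read by probe sets whose identifier marks probes shared between transcripts. Their tested probe sets without that mark had log2 changes of -0.48 ± 0.47 SE (.L) and -0.21 ± 0.34 SE (.S), whose difference was not tested. rps6.L held 6410.1 and 5949 in whole oocytes and 4399.8 and 5229.8 in cortices, and rps6.S 4704 and 4809 in whole oocytes and 3810.3 and 4197 in cortices. Both copies were lower in both cortices, and neither passed. Over the 7 pairs the median size of the difference was 0.18, against 0.32 over all 636 pairs. The widest interval, that of rps3, ran from -1.68 to 0.89, so a 2-fold difference between its copies lies within it. The same holds for rps12 (-1.38 to 0.28), rpl4 (-1.11 to 0.75) and rplp2 (-0.79 to 1.19). The intervals of rps6, rpl5 and rps3a did not reach a 2-fold difference.

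**Figure D4:**
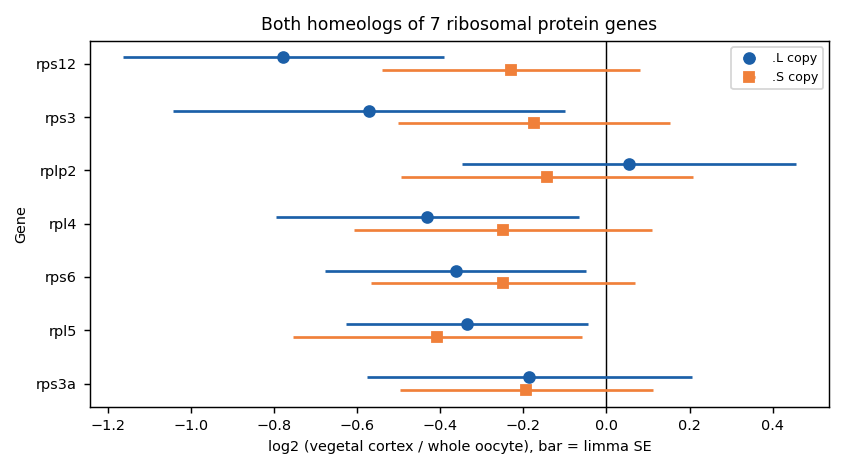
Log2 change in the vegetal cortex of the .L copy (blue circles) and the .S copy (orange squares) of the 7 genes with both copies tested, bars are limma SE from 2 arrays per group. The bars of the copies overlap in every gene, and rps12 and rps3 show the widest gaps.

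In these genes the arrays of 1 female correlated more closely than the arrays of 1 sample type. Over the 70 genes, log2 signals correlated at 0.93 between whole oocyte and cortex of the first female and at 0.90 in the second, against 0.85 between the whole oocyte arrays and 0.75 between the cortex arrays. Whole oocyte and cortex of different females correlated at 0.87 and 0.70. Over all tested probe sets the order was different, with 0.83 and 0.82 within the females, 0.94 between whole oocytes and 0.84 between cortices. These are correlations across genes, which are not independent, and they are given as a description. The difference between replicates 1 and 2 in whole oocytes correlated with that in cortices at 0.66 over the 70 genes, at 0.35 over all tested probe sets and at 0.39 over those of the brightest decile. A female cannot be told apart from any step in which her samples were handled together.

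rpl3.L, described above, read higher in the first female in both sample types. rpl19.L, a protein of the large subunit, showed the same: 9961 and 4326 in whole oocytes and 7417 and 3090.0 in cortices. rpsa.S, the small subunit protein also known as the laminin receptor precursor, read 12439 and 3540.2 in whole oocytes, the widest gap between these arrays among the 70 genes, and 6844 and 5103 in cortices. Its cortex values lay between the oocyte values, and its log2 change was -0.17 ± 0.55 SE.

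Other genes read higher in the second female. rpl22l1.L, a paralog of rpl22, read 1742 and 3573 in whole oocytes and 1246 and 4333 in cortices, and rps28p9.S 2379.8 and 4702 in whole oocytes and 2186 and 6898 in cortices. In rps21.S, a small subunit protein named here after its values were seen, the gap was wider in cortices (1467 and 4842) than in whole oocytes (2190.3 and 3226). Among the genes with the widest gap between the whole oocytes was also rpl7a.S, at 1355 and 557, whose cortices were alike at 674 and 729.9. The paralog rpl7l1.L, related to rpl7, read 8138 and 5533 in whole oocytes and 5904 and 4742 in cortices (log2 change -0.34 ± 0.34 SE).

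A comparison of replicate 1 with replicate 2, with sample type as a term, was added after these values were seen. By limma 0 of 83 members passed at an adjusted p under 0.05, as did 0 of all tested probe sets (0.0%), and 15 members passed at an unadjusted p under 0.05 (18.1%, against 14.2% of all tested), 7 higher in the first female and 8 in the second. The 4 largest differences, replicate 1 over replicate 2, were 1.68 ± 0.29 SE for rpl3.L, 1.23 ± 0.25 for rpl19.L, -1.41 ± 0.31 for rpl22l1.L and -1.31 ± 0.30 for rps28p9.S, each with an adjusted p = 0.343 or above.

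**Figure D5:**
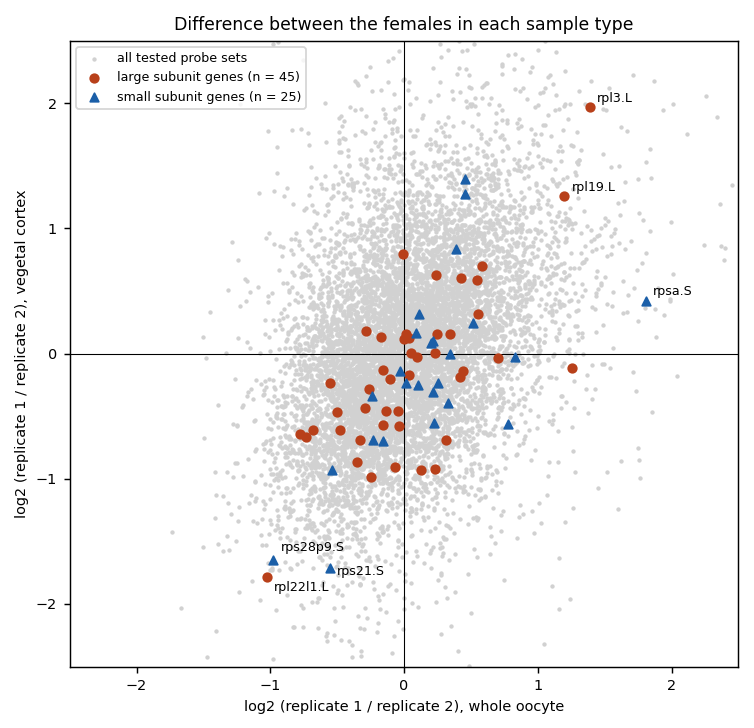
Log2 ratio of replicate 1 over replicate 2 in whole oocytes (horizontal) and in vegetal cortices (vertical) for large subunit genes (red circles), small subunit genes (blue triangles) and all tested probe sets (grey, of which 128 lie outside the axes). rpl3.L and rpl19.L lie at the upper right, higher in the first female in both sample types, and rpl22l1.L and rps28p9.S at the lower left.

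The 11 members below the signal limit were not read as absent RNA. Of these, 6 share a symbol with a tested probe set, and the rest belong to genes without a tested probe set. The 11 carry the symbols rpl38.L, rpl34.L, rpl3.L, rpl35.L, rps6.S, rps28p9.S, rpl3l.L, rpl28.L, rps20.L and, with 2 probe sets, rps10.L. For rpl38.L the dim probe set read 12.8 and 9.24 in whole oocytes where the tested one read 14592 and 12436. The 4 genes with no tested probe set were rpl3l.L, the counterpart of the mammalian muscle paralog of rpl3 (5.27 and 18.2 in whole oocytes, 13.1 and 71.4 in cortices), rpl28.L, rps20.L and rps10.L. The brighter probe set of rps10.L read 407 and 224 in whole oocytes and 245 and 164 in cortices, below the limit in its mean.

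Other genes of the translation machinery gave no called change either. These were lists chosen with earlier results of these data known, and by limma no gene in them was called in either direction, where 3.31% of tested probe sets were called higher and 0.0% lower, and 65.7% had a log2 change below 0. The list of genes whose mRNAs are known to carry a TOP sequence, such as elongation factors, left out the members by symbol. A ribosomal protein gene of another name, such as fau.L, stayed in it. Of its 18 tested genes 13 were below 0, with a median log2 change of -0.22 and none past an unadjusted p under 0.05. The brightest were nap1l1.L, a histone chaperone (22826 and 19629.6 in whole oocytes, 19652 and 30549 in cortices, log2 change 0.21 ± 0.30 SE), and npm1.L, nucleophosmin (-0.03 ± 0.39 SE).

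Regulators of TOP mRNAs and of S6 had 7 tested genes, 3 below 0 (median 0.09, none past an unadjusted p under 0.05). Their log2 changes ran from -0.40 to 0.78. The brightest were ssb.L, the La protein, which binds TOP sequences in Xenopus (-0.04 ± 0.36 SE), and the S6 kinase gene rps6ka1.L (-0.22 ± 0.40 SE). The list for storage of 5S ribosomal RNA in oocytes held 42sp43.L, 42sp50.L, gtf3a.L, which encodes transcription factor IIIA, and the rpl5 copies. Its genes were 5 of 5 below 0 (median -0.34, none past an unadjusted p under 0.05). rpl5.S read 10235 and 10308 in whole oocytes and 10195 and 5875 in cortices (log2 change -0.41 ± 0.35 SE), and rpl5.L 9862 and 9789 in whole oocytes and 8223 and 7367 in cortices (-0.34 ± 0.29 SE). The whole oocyte arrays of both copies were nearly equal, and rpl5.S was low on 1 cortex array alone.

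Ribosome assembly factors, among which npm1.L counts again, had a median log2 change of -0.38 over 32 tested genes, 25 of them below 0 (65.7% of all tested probe sets were) and 3 lower before adjustment (4.62% of all tested). npm1.L and nmd3.L, which carries the large subunit out of the nucleus, were the brightest, with nmd3.L at -0.29 ± 0.31 SE. Mitochondrial ribosomal protein genes had a median of -0.33. Of their 38 tested genes 36 were below 0, against 65.7% of all tested probe sets. Before adjustment 2 were lower, against 4.62% of all tested. The brightest of these were mrpl16.S (-0.07 ± 0.31 SE) and mrps17.L (-0.42 ± 0.39 SE). Whether these lists differ from the cytosolic ribosomal proteins was not tested.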

How the data were processed

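RNA of 2 whole oocyte and 2 vegetal cortex samples was amplified in 2 cycles of cDNA synthesis and hybridized to 1-colour Affymetrix arrays, per the labels' protocols. The deposited table holds 1 intensity per probe set and array, made by the authors with MAS5 per the submitters' processing notes, whose version and settings were not given in the sources used here. The trimmed mean was 1500.12 for whole oocytes and 1500.15 for cortices, and this scaling was kept. The number of arrays limits the precision. Groups and replicate numbers came from the titles; for vegetal cortex replicate 2 the description gives the number of replicate 1.

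Gene names came from the platform annotation, updated through gene identifiers with the Xenopus_laevis_v10.1 gene table; all members kept their symbol. No sequences were used here. Of 15611 probe sets, 120 controls were left out. The offset of 19.11 is the 10th and the signal limit of 271.5 the 40th percentile. limma 3.58.1 (R 4.3.3; lmFit, eBayes with trend, on 2 residual degrees of freedom and 6.22 from the prior) tested cortex against whole oocytes, two-sided, without a block, with Benjamini-Hochberg adjustment and a threshold of 0.05. The fits were run on simulated data with independent errors and the same spread in both groups. Planted changes there were larger than that of any member, and same-numbered arrays shared no deviation. The homeolog test used the .L minus .S difference per array. Errors are limma's SE.

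The design text gives 1 donor female per replicate and the protocol names control oocytes of the same female, from which the pairing was inferred, and same-numbered arrays deviated together from their group means (r = 0.35 over tested probe sets). The p-values rest on the spread between 2 arrays per group, moderated by the trend over all tested probe sets. That spread holds the difference between females together with the handling of each sample. Members and lists were chosen with earlier results of these data known. Named members were the 6 brightest genes per subunit, the 6 lowest and 6 highest changes, members below the signal limit, stalk proteins, rpsa and paralogs, all homeolog pairs, the 5 widest gaps between whole oocytes, genes with several probe sets and the 2 brightest of each other list; rps21.S, and rps3.L and others named for a call without 1 array were chosen after their values were seen. Alternatives were the offset, quantile normalization, the signal limit, the trend, the replicate block, the choice of probe sets and leaving out each array.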

Additional observations from a re-analysis of the deposited data

How the results depend on the processing

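No member was called higher under any of the alternatives, and members were called lower only when a cortex array was left out (0 to 4 of 83 over the 4 fits that leave out 1 array). In the fits with 1 cortex array the residual spread is that of the whole oocytes, whose log2 replicate differences had an SD of 0.53 over tested probe sets, against 0.88 in cortices, and the lone array is assumed to vary alike. The median log2 change of the members kept its sign, from -0.30 to -0.13 with 1 array left out, and was -0.012 relative to the median of all tested probe sets. The difference between the subunits' medians was -0.056 over all tested member probe sets, -0.016 without probe sets shared between transcripts, -0.012 with quantile normalization, -0.057 with the signal limit at the 60th percentile, and from -0.12 to 0.00074 with 1 array left out, so its sign is not settled. With 1 array left out, 125 to 697 of all probe sets were called higher and 0 to 673 lower; quantile normalization called 1 lower. The replicate block changed no call of a member, homeolog pair of the members or other translation gene. Among all homeolog pairs 10 were called with the replicate block, 11 when dim probe sets were kept, and 0 to 72 with 1 array left out, and among the 7 ribosomal protein pairs 0 to 1. Of the other translation lists, 0 to 2 probe sets were called higher and 0 to 7 lower with 1 array left out. Over 745 comparisons of a named probe set with its value under an alternative, 7 newly passed, 0 no longer passed, and 55 had another sign, none of them a called change.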
